A study of Mus musculus with 2 samples.

Results

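The p53 and p21 growth arrest genes described here are *Cdkn1a*, *Mdm2*, *Ccng1*, *Gadd45a*, *Gadd45b*, *Gadd45g*, *Btg2* and *Trp53inp1*. They were chosen by symbol for their known place in p53 signaling and growth arrest. No measured value entered the choice, but earlier results of these data were known when it was made. All 8 were found among the 34745 genes that the authors listed, and all 8 had enough counts to be compared. Liver from WT males was compared with that of males labelled miRNA-182 KO, in which miR-182-5p was knocked out on a single allele. All animals were 8 to 10 weeks old and had undergone partial hepatectomy (PH), in which 70% of the liver is removed, and the tissue was taken at day 3 after PH. Poly(A) RNA was sequenced in 1 library per genotype, and how many mice went into a library is not stated in the sources used here. Since a genotype is 1 library, no difference could be checked against replicates, no p-value is given, and every interval covers counting error only.

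The transcription factor p53 is stabilised by DNA damage and other stress, and it switches on a set of genes that stop the cell cycle, repair DNA or kill the cell. Its best known arrest target, *Cdkn1a*, encodes p21, which binds cyclin-dependent kinases and PCNA and holds cells before S phase, and *Mdm2* encodes the ubiquitin ligase that sends p53 back to degradation. In regenerating liver p21 is known as a brake on hepatocyte DNA synthesis, while the *Gadd45* genes and *Btg2* also answer to stress and growth signals that do not pass through p53.

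The mature sequence of miR-182-5p, the miRNA knocked out on a single allele in the KO mice, was taken from RefSeq (GRCm38.p6, chr6:30165962-30165986, minus strand). It is shown with its seed, bases 2 to 8, in capitals. The 8-base match to this seed was sought in the longest annotated 3′ UTR of each of the 8 genes. *Trp53inp1* held 1 such match, at base 4273 of a 3′ UTR of 4420 bases (GRCm38, chr4:11174221-11174250, plus strand), printed after the miRNA with the match in capitals.
miR-182-5p: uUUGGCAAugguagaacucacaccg
*Trp53inp1* 3′ UTR site: agcacagcactTTGCCAAAaaaccccaaaa
The other 7 genes, with 3′ UTRs of 489 to 2316 bases, had neither the 8-base match nor either 7-base form of it. Of 12503 tested genes with an annotated 3′ UTR, 4.98% held the 8-base match. Such a match is a description of the sequence and not evidence that the miRNA binds there.

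Promoters, here the 250 bases before and 50 bases after an annotated start, were available from RefSeq (GRCm38.p6) for 7 of the 8 genes, all but *Trp53inp1*. *Cdkn1a* had 2 annotated starts. The promoters of *Cdkn1a*, *Mdm2*, *Btg2* and *Gadd45b* are shown because these genes were past 2-fold between the libraries, as was *Gadd45a*, whose counts were low. Matches were sought on both strands to the p53 half-site, the GC box GGGCGG, the CCAAT box, the E-box CACGTG, the AP-1 site TGANTCA, the half-site of the cAMP response element TGACG and the TATA box TATAAA. All matches are in capitals, and those on the other strand read as the reverse complement.
*Cdkn1a*, upstream start, chr17:29090729-29091028, plus strand: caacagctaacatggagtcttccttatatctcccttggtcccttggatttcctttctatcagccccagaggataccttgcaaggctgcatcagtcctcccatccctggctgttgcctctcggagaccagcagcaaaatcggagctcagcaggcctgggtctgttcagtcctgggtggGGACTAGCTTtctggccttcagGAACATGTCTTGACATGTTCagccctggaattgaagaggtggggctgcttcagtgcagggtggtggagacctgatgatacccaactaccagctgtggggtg
*Cdkn1a*, downstream start, chr17:29093519-29093818, plus strand: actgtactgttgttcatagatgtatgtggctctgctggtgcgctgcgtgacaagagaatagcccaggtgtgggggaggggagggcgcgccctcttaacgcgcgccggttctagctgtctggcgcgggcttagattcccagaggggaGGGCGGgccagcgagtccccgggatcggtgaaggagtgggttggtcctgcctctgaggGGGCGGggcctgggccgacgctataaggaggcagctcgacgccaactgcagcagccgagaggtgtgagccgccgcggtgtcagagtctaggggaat
*Mdm2*, chr10:117710709-117711008, minus strand: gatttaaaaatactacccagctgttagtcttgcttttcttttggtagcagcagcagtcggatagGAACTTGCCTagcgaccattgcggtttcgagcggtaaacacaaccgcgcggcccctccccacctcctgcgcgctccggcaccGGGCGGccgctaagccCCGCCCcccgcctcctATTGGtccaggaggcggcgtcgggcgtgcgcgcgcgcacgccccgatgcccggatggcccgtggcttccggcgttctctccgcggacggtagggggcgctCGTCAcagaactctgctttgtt
*Btg2*, chr1:134079106-134079405, minus strand: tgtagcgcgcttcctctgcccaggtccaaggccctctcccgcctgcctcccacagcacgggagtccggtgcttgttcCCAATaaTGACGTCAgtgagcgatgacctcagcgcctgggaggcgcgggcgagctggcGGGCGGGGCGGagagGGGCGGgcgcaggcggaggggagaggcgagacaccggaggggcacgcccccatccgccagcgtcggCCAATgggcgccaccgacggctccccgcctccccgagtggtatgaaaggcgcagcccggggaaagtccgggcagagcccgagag
*Gadd45b*, chr10:80929841-80930140, plus strand: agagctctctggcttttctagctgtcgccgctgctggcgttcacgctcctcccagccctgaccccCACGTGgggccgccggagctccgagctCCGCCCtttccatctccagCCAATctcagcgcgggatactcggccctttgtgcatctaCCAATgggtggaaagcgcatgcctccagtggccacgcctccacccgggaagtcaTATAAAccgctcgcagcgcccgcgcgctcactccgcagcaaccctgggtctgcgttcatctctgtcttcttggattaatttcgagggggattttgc
At its upstream start *Cdkn1a* held 2 p53 half-sites, at −73 to −64 and at −51 to −42 from the start. The second of these was the left part of a full p53 site at −51 to −32, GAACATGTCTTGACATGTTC. A full site was taken as a pair of adjacent half-sites with both cores whole and at most 2 of the other letters off, a definition made after the half-site matches had been seen. Of 32851 promoters, 8.36% held a p53 half-site and 0.158% a full site. The downstream start of *Cdkn1a* held 2 GC boxes and no p53 half-site.

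Single p53 half-sites were also found in the promoters of *Mdm2* at −186 to −177, *Ccng1* at −185 to −176 and *Gadd45a* at −40 to −31. The p53 sites by which *Mdm2* is known to be induced lie in its first intron, outside this window. *Btg2* had no p53 half-site and held 3 GC boxes, of which 2 overlap, 2 CCAAT boxes and 2 overlapping half-sites of the cAMP response element. *Gadd45b* held a GC box, 2 CCAAT boxes, an E-box and a TATA box. *Gadd45g* also held an E-box, at −142 to −137, and a TATA box, at −27 to −22, and these were the only promoters among those of the 7 genes with a match to either. The E-box was present in 7.15% of all promoters and the TATA box in 13.6%. A GC box was present in 35.7%, a CCAAT box in 37.4%, an AP-1 site in 7.81% and the half-site of the cAMP response element in 20.8%. No promoter of the 7 genes had an AP-1 match, which says only that these letters were not in this window.

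Total counts were 13247497 for KO and 13163348 for WT liver, and 13561 genes had at least 10 counts over both. Mitochondrial mRNA, from 13 genes, made up 51.7% of the counts of KO liver and 31.0% of those of WT liver. Counts were therefore scaled by TMM, which limits the weight of the most abundant genes, and given as CPM, the counts relative to the scaled library size. Scaling by total counts instead moved the median of all genes by −0.60 on the log2 scale, and both scales are given where the call of a named gene or the count of a list differs. *Mir182* was not analysed here, so the genotype was not checked on its level. Summed CPM of the 6 hepatocyte markers was 49398 in the KO and 49049 in WT liver, and none of them differed 2-fold. The 7 stellate cell markers summed to 72.2 and 106 CPM with 2 of 7 lower in KO liver (*Col1a1* and *Acta2*), and the 7 markers of Kupffer cells and macrophages summed to 132 and 175 with 2 of 7 lower (*Adgre1* and *Marco*). The 7 endothelial markers summed to 71.2 and 88.8 with 1 of 7 lower (*Lyve1*), the 5 cholangiocyte markers to 164 and 125 with 2 of 5 higher (*Krt19* and *Krt7*), and the neutrophil markers to 34.4 and 31.3 with 0 of 4 tested past 2-fold. Most of the cholangiocyte sums was *Spp1*, with 152 and 116 CPM and a log2 fold change of 0.40. *Krt19* had only 26 and 7 counts and *Krt7* 15 and 6, while *Epcam* was at 0.14 and *Sox9* at −0.31. The lymphocyte markers summed to 2.05 and 2.10, 2 of 6 could be tested, 1 of these was higher, and *Cd3e* and *Cd3g* were at 0 counts in KO liver. The counting intervals of *Col1a1*, *Acta2*, *Adgre1*, *Marco* and *Krt7* reached across the 2-fold mark, and those of *Lyve1* and *Krt19* did not. With total counts 1 of the 6 hepatocyte, 4 of the 7 stellate cell, 3 of the 7 Kupffer cell and macrophage, 4 of the 7 endothelial and 1 of the 2 lymphocyte markers tested were lower. Of all tested genes, 9.46% were higher and 9.94% lower with TMM, and 4.6% and 26.6% with total counts. The part of these cell types in the results was not tested.

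Of the 51-base words in their longest transcripts, the 8 genes shared at most 0.258% with other genes. Levels were compared with each other in the FPKM that the authors deposited, which are per transcript length. These are scaled by total counts, which moved the median of all genes by −0.60 on the log2 scale. KO values are therefore lower beside WT values than with TMM, and the TMM fold changes are given further below. *Gadd45g* had the highest level in both libraries, 56.5 FPKM in KO liver (95% counting interval 53.6 to 59.5) and 105 FPKM in WT liver (101 to 109). *Cdkn1a* and then *Ccng1* followed in both. In WT liver *Cdkn1a* stood at 24.8 FPKM (23.3 to 26.3) and *Ccng1* at 10.4 FPKM (9.55 to 11.2), with separate intervals, whereas in KO liver *Cdkn1a* at 5.60 FPKM (4.90 to 6.37) and *Ccng1* at 5.04 FPKM (4.47 to 5.65) had overlapping intervals. *Mdm2* was in place 7 of 8 in WT liver with 1.37 FPKM (1.17 to 1.58) and in place 4 in KO liver with 3.43 FPKM (3.12 to 3.77). *Gadd45b*, *Btg2* and *Trp53inp1* lay between *Ccng1* and *Mdm2* in WT liver, at 7.50, 5.82 and 5.59 FPKM. The interval of *Btg2* (5.06 to 6.66) overlapped those of *Gadd45b* (6.24 to 8.94) and *Trp53inp1* (5.12 to 6.08). In KO liver the same genes were at 2.33, 1.71 and 1.86 FPKM, below *Mdm2*, although the interval of *Gadd45b* (1.65 to 3.18) still reached that of *Mdm2*. *Gadd45a* had the lowest level in both libraries, 0.455 FPKM in KO liver (0.294 to 0.672) and 0.293 FPKM in WT liver (0.167 to 0.476), with overlapping intervals.

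**Figure D1:**
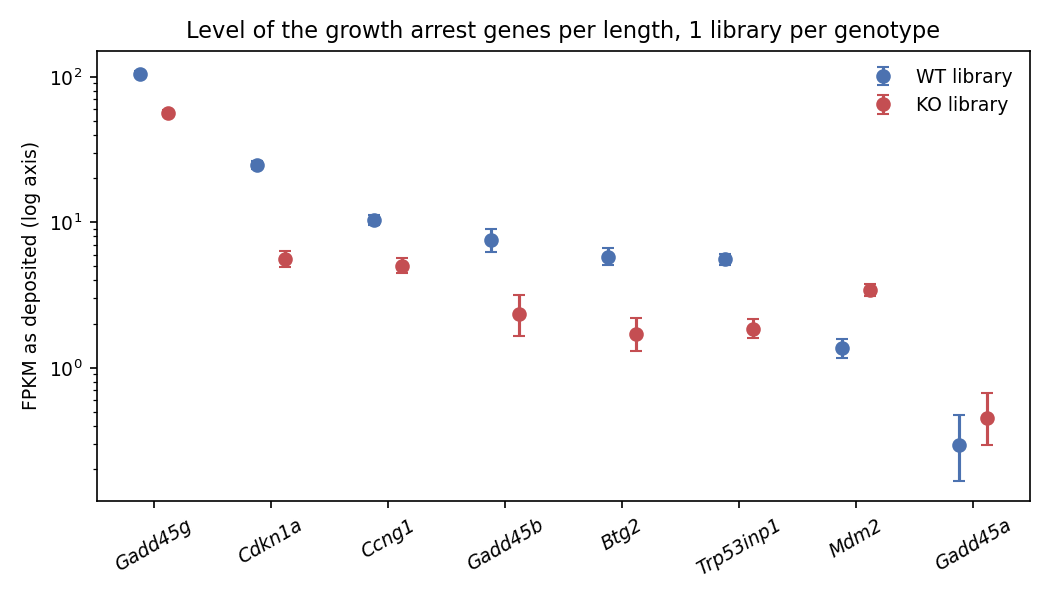
Deposited FPKM (log axis) of the 8 growth arrest genes in WT liver (blue) and KO liver (red), ordered by the WT level. Points are single libraries and bars are 95% Poisson intervals of the count, which cover counting error only. *Mdm2* and *Gadd45a* have the KO point above the WT point, and the 6 others have it below. The FPKM are scaled by total counts, which puts KO points lower beside WT points than TMM does.

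The gene of the arrest itself, *Cdkn1a*, was lower in KO liver, and the gene of the p53 ligase, *Mdm2*, was higher. *Cdkn1a* (ENSMUSG00000023067, chromosome 17, 29090979 to 29100722, plus strand) had 228 counts in KO liver and 1002 in WT liver, or 21.2 and 61.8 CPM. It was thus 2.91-fold lower in KO liver, with a log2 fold change of −1.54 (95% interval −1.76 to −1.33). Of all tested genes, 4.94% had a lower log2 fold change. *Cdkn1a* overlaps an antisense gene that was not analysed here, and strand was not stated for the counting. In bulk liver, fewer cells that express a gene and less RNA per cell cannot be told apart.

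*Mdm2* (ENSMUSG00000020184, chromosome 10, 117688888 to 117710758, minus strand) moved the opposite way, with 445 counts in KO liver and 176 in WT liver, or 41.4 and 10.9 CPM. It was 3.80-fold higher in KO liver, with a log2 fold change of 1.93 (1.68 to 2.19), and 96.8% of the tested genes had a lower value. Total counts gave 1.33 for *Mdm2* and −2.14 for *Cdkn1a*, so that both stayed past 2-fold.

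The ratio of *Mdm2* to *Cdkn1a* within a library does not depend on how the libraries are scaled. It was 0.613 in FPKM in KO liver and 0.0552 in WT liver, and its log2 difference between the libraries was 3.47 (3.14 to 3.81). The p53 gene itself, *Trp53*, had 177 counts in KO liver and 328 in WT liver, 16.5 and 20.2 CPM, a log2 fold change of −0.30 (−0.57 to −0.03) that did not reach 2-fold. Against *Trp53*, *Mdm2* was higher in KO liver by 2.23 (1.85 to 2.60) on the log2 scale and *Cdkn1a* lower, at −1.25 (−1.59 to −0.90). *Mdm4*, the paralog of *Mdm2* that holds p53 inactive without degrading it, had 1205 and 1445 counts and a log2 fold change of 0.33 (0.22 to 0.44), which turned to −0.27 with total counts. The ratio of *Mdm2* to *Mdm4* differed by 1.60 (1.32 to 1.88). The 2 p53 inhibitors were therefore not in the same proportion in the libraries.

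**Figure D2:**
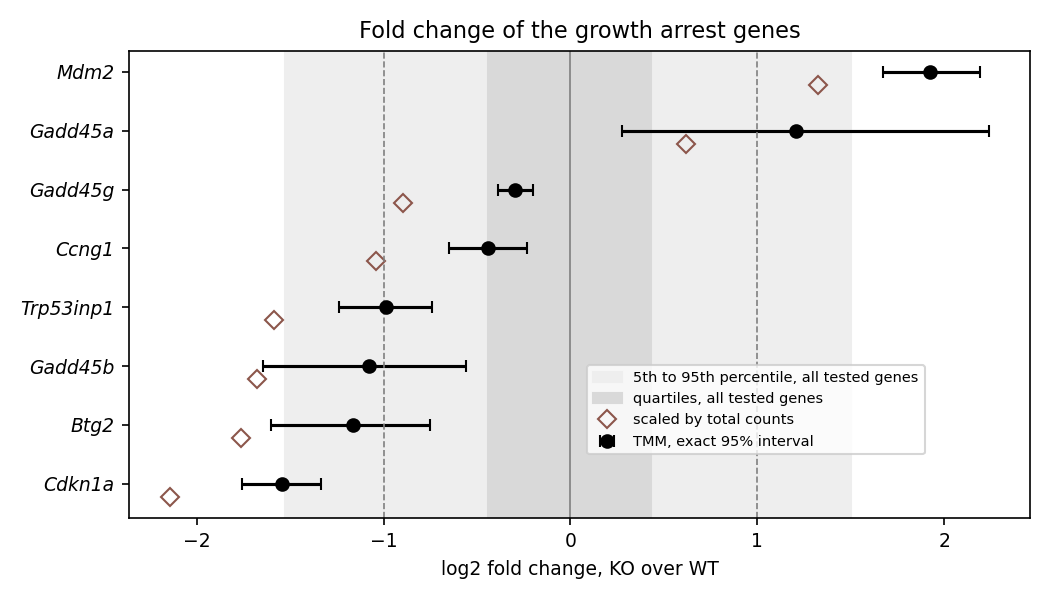
Log2 fold change, KO over WT, of the 8 growth arrest genes. Black points are TMM-scaled values with exact 95% intervals of counting error, brown diamonds are values scaled by total counts, dark and light grey bands span the quartiles and the 5th to 95th percentiles of all tested genes, and dashed lines mark a 2-fold change. *Cdkn1a* and *Mdm2* have whole intervals past 2-fold, on opposite sides, and scaling by total counts moves every gene to the left.

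*Btg2*, an antiproliferative gene that recruits the CCR4-NOT deadenylase and answers to p53, was lower in KO liver. *Btg2* (ENSMUSG00000020423, chromosome 1, 134075170 to 134079120, minus strand) had 62 counts in KO liver and 210 in WT liver, or 5.76 and 12.95 CPM. The log2 fold change was −1.16 (−1.60 to −0.75), 2.24-fold lower, and the interval reached across the 2-fold mark. The ratio of *Cdkn1a* to *Btg2* differed between the libraries by −0.38 (−0.85 to 0.11), so that a difference between these genes in their fold change was not detectable at this depth. The paralog *Btg1* had 244 counts in KO liver and 493 in WT liver and a log2 fold change of −0.42 (−0.65 to −0.20), or −1.02 with total counts. The ratio of *Btg2* to *Btg1* was lower in KO liver, with a log2 difference of −0.74 (−1.24 to −0.27).

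*Trp53inp1*, a p53 target that promotes p53 phosphorylation and autophagy, lay just short of 2-fold. It (ENSMUSG00000028211, chromosome 4, 11156431 to 11174379, plus strand) had 177 counts in KO liver and 529 in WT liver, or 16.5 and 32.6 CPM. The log2 fold change was −0.99 (−1.24 to −0.74), 1.98-fold lower. It passed 2-fold with total counts, at −1.59, and with total counts that leave out the mitochondrial genes, at −1.07. It is the only gene of the 8 with the 8-base seed match shown above, and 6 of the 8 had a log2 fold change below 0. Whether the match plays a part in its level was not tested. The paralog *Trp53inp2*, which also acts in autophagy, had 888 and 1354 counts and a log2 fold change of −0.02 (−0.14 to 0.11). The ratio of *Trp53inp1* to *Trp53inp2* differed by −0.97 (−1.25 to −0.69).

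*Ccng1*, which encodes cyclin G1, a p53 target that works with a phosphatase on Mdm2, differed less. *Ccng1* (ENSMUSG00000020326, chromosome 11, 40748552 to 40755311, minus strand) had 288 counts in KO liver and 589 in WT liver, or 26.8 and 36.3 CPM, a log2 fold change of −0.44 (−0.65 to −0.23). With total counts it was −1.04, just past 2-fold. *Cdkn1a* was lower relative to *Ccng1* in KO liver, by a log2 difference of −1.10 (−1.40 to −0.81). The ratio of *Ccng1* to its paralog *Ccng2* differed by 0.17 (−0.32 to 0.67), an interval that includes 0.

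The *Gadd45* genes encode small stress proteins that bind PCNA, p21 and the kinase Map3k4, and they did not move together. *Gadd45b* (ENSMUSG00000015312, chromosome 10, 80930091 to 80932204, plus strand), known as an early gene of the regenerating liver, had 39 counts in KO liver and 125 in WT liver, or 3.63 and 7.71 CPM. It was 2.11-fold lower in KO liver, with a log2 fold change of −1.08 (−1.65 to −0.56). *Gadd45a* (ENSMUSG00000036390, chromosome 6, 67035096 to 67037457, minus strand), the classical p53 target of the family, had 25 counts in KO liver and 16 in WT liver, or 2.32 and 0.987 CPM. Its log2 fold change was 1.21 (0.27 to 2.24), 2.31-fold higher, and it fell under 2-fold with total counts (0.62) and with a prior count of 5 (0.99). *Gadd45a* overlaps the antisense gene *E230016M11Rik*, which had 41 and 28 counts, and unless strand was used in the counting, reads of the 2 genes cannot be told apart.

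*Gadd45g* (ENSMUSG00000021453, chromosome 13, 51846678 to 51848468, plus strand) had 1448 counts in KO liver and 2677 in WT liver, or 135 and 165 CPM. Its log2 fold change was −0.29 (−0.39 to −0.20), short of 2-fold on both scales. It made up nearly all counts of the family, 1448 of 1512 or 95.8% in KO liver (exact Clopper-Pearson interval 94.6% to 96.7%) and 2677 of 2818 in WT liver (94.1% to 95.8%). *Gadd45a* took 1.65% of the family counts in KO liver (1.07% to 2.43%) and 0.568% in WT liver (0.325% to 0.920%), whereas *Gadd45b* took 2.58% (1.84% to 3.51%) and 4.44% (3.71% to 5.26%). Neither pair of intervals overlapped. On the log2 scale the ratio of *Gadd45a* to *Gadd45b* was higher in KO liver by 2.31 (1.19 to 3.47), and that of *Gadd45a* to *Gadd45g* by 1.53 (0.56 to 2.54). The balance of the minor family members thus differed between the libraries without regard to scaling. For *Gadd45a* this rests on 25 and 16 counts, and the limit of strand given above holds here too.

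Counted together, 2 of the 8 genes were at least 2-fold higher in KO liver (*Mdm2* and *Gadd45a*) and 3 at least 2-fold lower (*Cdkn1a*, *Btg2* and *Gadd45b*). Of all 13561 tested genes, 9.46% were higher and 9.94% lower by the same criterion. The median log2 fold change of the 8 genes was −0.71, beside 0.00 for all tested genes, and 6 of the 8 were below 0. With total counts 1 of the 8 was higher (*Mdm2*) and 5 were lower (with *Ccng1* and *Trp53inp1* added), where 4.6% of all genes were higher and 26.6% lower, and the median was −1.31 beside −0.60 for all genes. When the whole interval had to lie past 2-fold, a criterion chosen after seeing the data, *Mdm2* alone was higher and *Cdkn1a* alone lower, beside 3.61% and 3.13% of all genes. The same 2 genes remained in edgeR's exact test with a coefficient of variation between animals set to 0.2, which called 3.6% of all genes higher and 3.27% lower. With an assumed coefficient of variation of 0.4 no gene of the 8 was called, beside 0.435% and 0.428% of all genes.

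**Figure D3:**
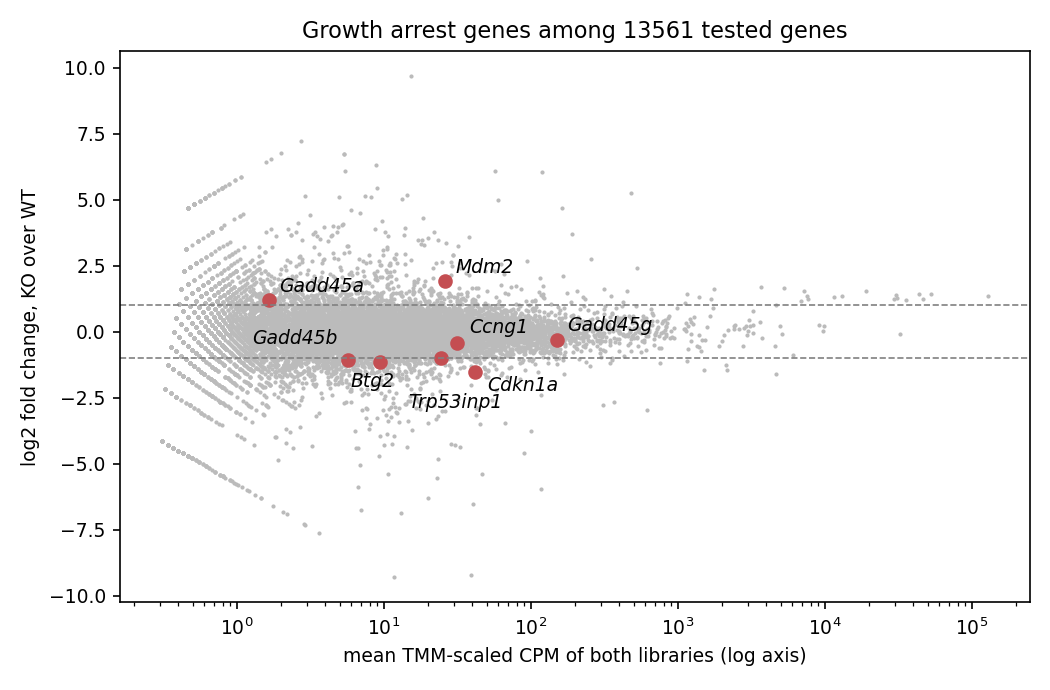
Log2 fold change, KO over WT, against the mean TMM-scaled CPM of both libraries (log axis) for all 13561 tested genes (grey), with the 8 growth arrest genes in red and dashed lines at 2-fold. *Gadd45a* lies at low abundance, where the spread of all genes is wide, while *Mdm2* and *Cdkn1a* lie toward the edges of the cloud at a higher abundance.

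Of 36 further known p53 targets, all tested, 1 was higher and 5 lower by 2-fold, and their median log2 fold change was −0.12. These were 2.78% and 13.9% of the list, beside 9.46% and 9.94% of all tested genes. *Plk3*, a stress kinase, was higher, with 1407 and 1040 counts in the KO and WT libraries (1.03, and 0.43 with total counts). *Ddit4*, an inhibitor of mTORC1, had 39 and 235 counts (−1.99), *Siva1*, a proapoptotic gene, 23 and 134 (−1.93), *Gtse1*, which moves p53 out of the nucleus, 28 and 129 (−1.60), and the death receptor gene *Tnfrsf10b* 28 and 88 (−1.05). *Pmaip1*, a proapoptotic gene that was picked with its values known, had 0 counts in KO liver and 18 in WT liver. With KO liver set to a floor of 3 counts it was 3.98-fold lower, which takes the WT count as exact. The counting interval of its log2 fold change had no lower end and reached up to −1.54. The apoptosis gene *Bax* was near equal, with 569 and 899 counts and a log2 fold change of −0.07 (−0.22 to 0.09). With TMM the median of the other targets thus lay near 0, between *Cdkn1a* and *Mdm2*. With total counts it was −0.72, beside −0.60 for all tested genes. On that scale 0 of the 36 were higher and 10 lower, beside 4.6% and 26.6% of all tested genes. The genes assigned to the KEGG p53 signaling pathway in the deposited annotation, which holds 6 of the 8 genes, gave a median of −0.13 over 54 others tested, with 4 higher and 7 lower. With total counts 2 of the 54 were higher and 18 lower, and the median was −0.73. The genes named by size of change were *Igfbp3*, which encodes a binding protein of insulin-like growth factors, with 71 and 48 counts (1.15, and 0.55 with total counts), and on the lower side *Shisa5*, a proapoptotic gene, with 17 and 167 (−2.68), *Cdk1*, *Gtse1* and *Rrm2*, a ribonucleotide reductase gene, with 72 and 302 (−1.47).

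Among p53 and its regulators, 2 of 13 tested genes were higher and 0 lower, and the median was 0.08, whereas with total counts 0 were higher and 2 lower (the kinase genes *Atr* and *Chek1*, picked with their values known, at −1.17 and −1.16) and the median was −0.52. The 2 higher genes were *Hipk2*, a kinase of p53, with 92 and 66 counts (1.06, and 0.47 with total counts), and the DNA damage kinase gene *Atm*, picked with its values known, with 15 and 9 counts (1.27, and 0.70 with total counts). No gene of 8 tested paralogs of the 8 genes differed 2-fold with TMM, and 2 were lower with total counts, *Btg1* and *Ccng2* (−1.21). The 2 with the most counts were *Mdm4* and *Ccni*, a cyclin gene with 1030 and 1472 counts (0.08, and −0.52 with total counts). Of all tested genes, 9.46% were higher and 9.94% lower with TMM, and 4.6% and 26.6% with total counts.

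Of the other CDK inhibitors, 2 of 4 tested genes were lower and 0 higher, and 3 were lower with total counts. Among all tested genes 9.94% were lower and 9.46% higher, and 26.6% were lower with total counts. *Cdkn1b*, which encodes p27, had 154 counts in KO liver and 257 in WT liver and a log2 fold change of −0.15 (−0.44 to 0.15). *Cdkn2d*, of the INK4 family, had 17 and 83 counts (−1.67), and *Cdkn1c*, which encodes p57, 9 and 35 (−1.33). The ratio of *Cdkn1a* to *Cdkn1b* differed by −1.40 (−1.76 to −1.03) on the log2 scale, so that p21 mRNA was lower relative to p27 mRNA as well. *Cdkn2a*, with 2 and 0 counts, and *Cdkn2b*, with 1 and 0, could not be compared.

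Most of the genes that p21 and p53 are known to hold down had a log2 fold change below 0. Of 18 cell cycle genes repressed through p53 and p21, 1 was higher, 5 were lower and 17 were below 0, with a median of −0.81, and with total counts 16 were lower. Among all tested genes 9.46% were higher and 9.94% lower, and 26.6% were lower with total counts. *Cdc20*, an activator of the anaphase promoting complex, had 210 counts in KO liver and 803 in WT liver (−1.34), *Top2a*, a topoisomerase gene, 104 and 374 (−1.25), *Cdca8* of the chromosomal passenger complex 68 and 235 (−1.19), and the phosphatase gene *Cdc25c* 16 and 54 (−1.14). *Plk1*, the fifth, had 102 and 323 counts (−1.07). *Foxm1*, a transcription factor of G2 and M phase genes, stood apart with 112 and 17 counts (3.27). Of 12 genes for cyclins, CDKs and PCNA, which p21 binds, 3 were lower and 0 higher, with a median of −0.41, and 6 were lower with total counts. The 3 were *Cdk1* with 106 and 540 counts (−1.75), *Ccnb1* with 25 and 93 (−1.29) and *Ccne2*, picked with its values known, with 6 and 37 (−1.96). In all, 17 of the 18 and 8 of the 12 genes had a log2 fold change below 0, where 6778 of the 13561 tested genes did. What links these genes to the lower *Cdkn1a* was not tested. In bulk liver, fewer dividing cells and less RNA per cell cannot be told apart.

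**Figure D4:**
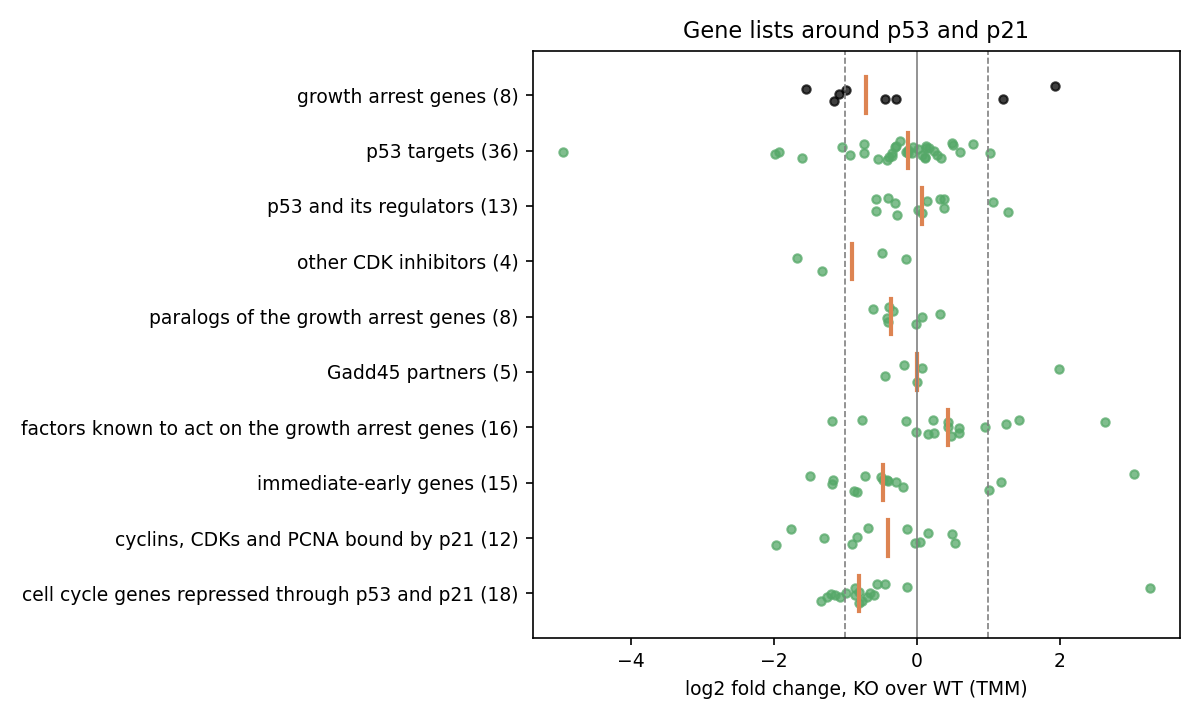
Log2 fold change, KO over WT (TMM), of each tested gene in lists around p53 and p21, with the number of tested genes in brackets, medians as orange bars and dashed lines at 2-fold. The point furthest to the left among the p53 targets is *Pmaip1*, which has 0 KO counts and is drawn at its fitted value. The medians run from −0.91 for the other CDK inhibitors to 0.44 for factors known to act on the growth arrest genes, and vertical scatter within a list has no meaning.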

How the data were processed

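Poly(A) RNA of mouse liver was sequenced on Illumina HiSeq instruments. Per the labels, HISAT2 2.0.4, StringTie and edgeR were used, with a build given as hg38. The deposited identifiers and coordinates are those of mouse, as in GENCODE M21 (GRCm38), and 5 of the 8 genes have the same start and end there. The deposited values are read counts per gene and the FPKM that the authors computed from them, scaled by total counts. How reads were counted, and whether by strand, is not given in the sources used here.

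All genes with 10 or more counts in total were tested, and log2 fold changes were taken from TMM-scaled CPM with a prior count of 0.5 (edgeR 4.0.16 in R 4.3.3). TMM factors were 0.812 for the KO and 1.23 for WT liver. A gene was called higher or lower past a 2-fold change. Intervals of fold changes and shares are exact 95% binomial intervals, those of FPKM are Poisson intervals, and all cover counting error only. Further tools were DESeq2 1.42.0 (size factors), Python 3.11.15, pandas 2.3.3, numpy 2.4.6, scipy 1.17.1 and matplotlib 3.10.9. The steps were tested on simulated data with counting error only. Those data held neither the mitochondrial difference between the libraries nor any spread between animals.

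The 8 genes and the gene lists were chosen with earlier results of these data known. In each list up to 4 genes per direction with at least 50 counts in the higher library were named by size of change, otherwise the 2 with the most counts, and *Trp53*, *Mdm4*, *Cdkn1b* and *Cdkn1c* whatever their values. *Bax* and the paralogs set against a growth arrest gene were named outside this rule. Seed matches were sought in GENCODE M21 3′ UTRs, and RefSeq promoters were searched for motifs.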

Additional observations from a re-analysis of the deposited data

How the results depend on the processing

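Beside the values reported, 12 settings were tried, of which the criterion on the whole interval was chosen after seeing the data. Every member of the 8 growth arrest genes kept the sign of its log2 fold change under each setting in which it was tested. DESeq2 size factors, the upper quartile and an exact binomial test added to the 2-fold change left 2 genes higher and 3 lower. Of all tested genes, DESeq2 size factors gave 1266 higher and 1356 lower, the upper quartile 1294 and 1329, and the binomial test 1081 and 1128. Total counts without mitochondrial genes left 2 higher and 4 lower, with *Trp53inp1* added, beside 1147 and 1525 of all genes. Total counts gave 1 higher and 5 lower and a median of −1.31, with 624 genes higher and 3605 lower of all tested. The deposited FPKM with a pseudocount of 0.1 gave 1 and 5, a median of −1.28, and 405 and 2934 of all genes. The exact test with an assumed coefficient of variation of 0.2 gave 1 and 1 (488 and 444 of all genes), and with 0.4 it gave 0 and 0 (59 and 58). The whole interval past 2-fold gave 1 and 1 (490 and 425). A prior count of 5 left 1 higher, without *Gadd45a*, and 3 lower, beside 1016 and 1047 of all genes. A minimum of 1 count gave 2269 genes higher and 2763 lower of all tested. A minimum of 50 counts removed *Gadd45a*, which left 1 higher and a median of −0.97, with 656 and 730 of all genes. The stricter filter tests fewer genes by construction, total counts move all genes down alike, and the cause was not tested otherwise. No paired analysis was possible because a group holds 1 library only. Depth limits *Gadd45a* most, with 16 counts in WT liver. Leaving out a library was not possible with 1 per genotype.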

Other observations

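Of 16 tested factors that are known to act on the growth arrest genes, 3 were higher and 1 lower by 2-fold in KO liver, beside 9.46% and 9.94% of all tested genes. Their median was 0.44 on the log2 scale. With total counts 1 was higher and 2 lower, beside 4.6% and 26.6% of all tested genes, and the median was −0.16. *Nr1d1*, a circadian repressor, had 534 counts in KO liver and 129 in WT liver, a log2 fold change of 2.64 (95% interval 2.36 to 2.93). Its paralog *Nr1d2* had 507 and 320 counts (1.25, 1.05 to 1.46, and 0.65 with total counts). *Ddit3*, the stress factor CHOP, had 368 and 206 counts (1.43, 1.18 to 1.68, and 0.83 with total counts). *Atf3*, a stress-induced factor, was lower, with 50 and 172 counts (−1.18, −1.67 to −0.73).

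Of 15 tested immediate-early genes, 3 were higher and 3 lower, with a median of −0.47, whereas with total counts 1 was higher and 9 were lower and the median was −1.07. Among all tested genes 9.46% were higher and 9.94% lower, or 4.6% and 26.6% with total counts. *Egr1*, a growth factor response gene, had 127 counts in KO liver and 431 in WT liver (−1.17, −1.47 to −0.88), lower as were *Atf3* and *Nr4a1*, which had 8 and 35 counts. *Socs3*, the inhibitor of IL-6 signaling, had 305 and 228 counts (1.01, 0.76 to 1.27, and 0.41 with total counts). *Fos* had 30 and 5 counts and *Ier3* 14 and 9, too few for a narrow interval, and *Ier3*, at 1.18, stood at 0.60 with total counts. *Nr4a1*, *Fos* and *Ier3* were picked with their values known. Of 5 genes for partners of the Gadd45 proteins, *Map2k7*, a kinase of the JNK pathway that Gadd45b is known to bind, was higher, with 295 and 111 counts (2.00, 1.68 to 2.33). The other 4 did not differ by 2-fold with TMM, and *Mapk8*, picked with its values known, was lower with total counts (−1.04). All of these are differences between 1 KO and 1 WT library, and what links them to the growth arrest genes was not tested.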
